A study of Mus musculus with 2 samples.

Results

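The genes described here are 7 chemokine receptor genes of the mouse: Ccr2, Cx3cr1, Ccr1, Ccrl2, Cxcr4, Ccr7 and Ccr9. They were taken by name from the 27998 genes of the deposited matrices, and all 7 were listed in both. A list of 26 receptor genes of the same family held 19 others, which serve as a comparison. The study sorted macrophages of the small intestine from wild-type mice and from mice without Ccr2, and measured their RNA cell by cell with droplet sequencing of 3′ ends (10x Genomics, 3′ v2 chemistry). Each transcript was counted once by its unique molecular identifier (UMI).

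The wild-type group was C57BL/6J, male, bought from Janvier, with no allele or agent named. The other group was CCR2-/-, a Jackson Laboratory line bred in-house, for which no sex was given among the labels. No treatment was named for either group. Both groups shared the same preparation: cells of 3 to 4 intestines were combined, mucus and epithelium were removed, the tissue was digested with Liberase TL, and live CD45+ cells were sorted as CD11b+ MHCII+ CD64+. Cells stained for CD3, TCRb, B220, SiglecF, Ly6C or Ly6G were gated out. Cells with surface Ly6C, the usual mark of the youngest monocytes, were therefore removed in both groups, so the Ccr2-expressing cells described here are those that passed that gate. Each genotype gave 1 library. The wild-type barcodes carried 2 suffixes, which were taken as 2 lanes of 1 sample and are no replicates. Whether both came from 1 cell suspension was not checked. Source, breeding and possibly sex differ together with genotype and cannot be told apart from it. No test between genotypes was possible. All intervals given are 95% intervals, exact Poisson for levels and Clopper-Pearson for shares, and they cover counting error only.

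Chemokine receptors are proteins that cross the membrane several times, couple to inhibitory G proteins and steer cells along gradients of small secreted chemokines. In the gut, Ly6C-high monocytes leave the bone marrow by means of CCR2, enter the lamina propria, and lose CCR2 while they gain CX3CR1, MHC class II and complement C1q as they become macrophages. Part of the gut macrophage pool is maintained locally, with little supply from blood. CX3CR1 binds fractalkine, CCR1 binds CCL3 and CCL5 among others, and CXCR4 binds CXCL12. CCRL2 is an atypical receptor that binds chemerin without G protein signalling. CCR7 guides mature dendritic cells and naive lymphocytes to lymph nodes, and CCR9 guides lymphocytes to the small intestine through CCL25.

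The receptor genes other than Cxcr4 and Ccr7 lie on chromosome 9 (GRCm38, GENCODE M21). Ccr2 spans chr9:124101950-124113557 on the plus strand. Ccr1 spans chr9:123962124-123968692 on the minus strand, 133 kb from Ccr2, and Ccr9 spans chr9:123678439-123784330 on the plus strand. Cx3cr1 spans chr9:119901616-120069879 and Ccrl2 spans chr9:111054486-111057519, both on the minus strand. Cxcr4 lies at chr1:128588199-128592293 and Ccr7 at chr11:99144196-99155077, both on the minus strand. All are protein-coding.

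The stretches of 250 bases before the RefSeq start are shown for 5 genes, because the results turn on them: Ccr2 is the deleted gene, Cx3cr1 and Ccr1 were lower in wild-type cells with more Ccr2, and Ccrl2 and Cxcr4 were higher in the knockout. They are RefSeq sequences of GRCm38.p6, read 5′ to 3′ along the gene's own strand, at chr9:124101933-124102182 (Ccr2, plus strand), chr9:120068297-120068546 (Cx3cr1, minus strand), chr9:123968693-123968942 (Ccr1, minus strand), chr9:111057519-111057768 (Ccrl2, minus strand) and chr1:128592300-128592549 (Cxcr4, minus strand). The RefSeq starts differ from the GENCODE gene bounds given above: the Ccr2 stretch lies mostly, and the Cx3cr1 stretch wholly, inside the GENCODE gene. Capitals mark a match to GAGGAA, the core bound by the myeloid factor PU.1.
Ccr2: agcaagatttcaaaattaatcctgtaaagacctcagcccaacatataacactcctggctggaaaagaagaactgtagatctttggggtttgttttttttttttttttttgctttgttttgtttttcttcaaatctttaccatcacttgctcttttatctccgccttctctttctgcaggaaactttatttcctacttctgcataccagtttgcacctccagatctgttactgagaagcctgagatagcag
Cx3cr1: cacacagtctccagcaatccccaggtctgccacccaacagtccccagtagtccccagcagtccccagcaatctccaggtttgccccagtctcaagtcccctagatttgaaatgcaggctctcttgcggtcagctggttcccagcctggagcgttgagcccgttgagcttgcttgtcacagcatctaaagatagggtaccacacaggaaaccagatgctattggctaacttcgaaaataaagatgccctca
Ccr1: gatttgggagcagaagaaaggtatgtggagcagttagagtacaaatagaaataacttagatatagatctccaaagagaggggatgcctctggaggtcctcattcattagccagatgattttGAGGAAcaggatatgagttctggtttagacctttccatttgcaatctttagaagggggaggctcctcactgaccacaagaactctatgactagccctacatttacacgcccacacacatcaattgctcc
Ccrl2: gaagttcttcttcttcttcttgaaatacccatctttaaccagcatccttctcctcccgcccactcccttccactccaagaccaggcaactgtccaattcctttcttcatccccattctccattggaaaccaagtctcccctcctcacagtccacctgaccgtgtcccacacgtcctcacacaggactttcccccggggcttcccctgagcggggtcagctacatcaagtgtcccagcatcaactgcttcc
Cxcr4: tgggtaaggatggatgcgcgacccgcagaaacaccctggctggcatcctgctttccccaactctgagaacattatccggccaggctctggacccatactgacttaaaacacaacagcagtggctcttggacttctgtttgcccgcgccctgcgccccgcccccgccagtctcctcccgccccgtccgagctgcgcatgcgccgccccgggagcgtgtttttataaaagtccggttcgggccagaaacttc
Motifs were searched on both strands in windows of 300 bases, which also take in 50 bases after the start. Of the 7 genes, 6 had a RefSeq promoter entry. GAGGAA was found once, in the Ccr1 window, and is present in 28.3% of all 32851 windows. The AP-1 motif TGANTCA, present in 7.81% of all windows, and the cAMP response motif TGACGTCA, present in 1.79%, were found in none of the windows of these 6 genes. These are descriptions of letters, not of bound sites.

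The analysis took cells that expressed 200 genes or more with 10% or less of their UMIs from mitochondrial genes. This left 3016 of 3054 wild-type cells (2109 on lane 1 and 907 on lane 2) and 2612 of 2774 knockout cells. The median depth per cell was 6129 UMIs in wild type, against 2439 UMIs for knockout cells. Lanes 1 and 2 shared 5 cell barcodes, the knockout shared 6 with lane 1 and 0 with lane 2. All 8 macrophage markers checked (C1qa, C1qb, C1qc, Csf1r, Adgre1, Fcgr1, Mertk and Cd68) were present in both libraries, summing to 14277 UMIs per 1000000 UMIs (CPM) in wild type and 10716 CPM in the knockout. Markers of other cells differed as well: the summed 8 monocyte markers were 362 CPM and 210 CPM, 5 fibroblast markers 27.5 CPM and 243 CPM, 5 endothelial markers 52.2 CPM and 190 CPM, and 4 red cell markers 761 CPM and 7429 CPM. These are sums: 3 of the 8 monocyte markers and 4 of the 8 macrophage markers were higher in the knockout, although both sums were lower there. All 5 fibroblast, 5 endothelial and 4 red cell markers were higher in the knockout. The 5 mast cell markers were at 0 in both. The 12 immediate-early genes examined, such as Fos, Jun and Egr1, which cells switch on within minutes of a stimulus or of tissue handling, summed to 6651 CPM in wild type and 25291 CPM in the knockout, and all 12 were at least 2-fold higher there. Their part in the library differences below was not tested except where values at equal immediate-early counts are given.

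Ccr2 was detected with 6844 UMIs in the wild-type library and with 50 UMIs in that of the knockout. Its level was 331 CPM in wild type (323 to 339), with 347 CPM on lane 1 and 293 CPM on lane 2, against 6.88 CPM in the knockout (5.11 to 9.07). The knockout level was 48.1-fold lower (36.4 to 64.9), whereas the lanes differed by -0.24 on the log2 scale. With each cell thinned to 1000 UMIs, which 1 wild-type and 196 knockout cells did not reach, a Ccr2 UMI was found in 20.5% of the wild type (19.1 to 22.0) and in 0.621% of the knockout (0.348 to 1.02). The unthinned shares were 43.9% and 1.15%. In the lymphoid-like cluster of the wild type, 10.0% held a Ccr2 UMI at 1000 UMIs (40 cells, median 7725 UMIs before thinning), and in the lymphoid-like clusters of the knockout 0% did (49 cells, median 2235 UMIs). Lymphoid-like shares, here and below, cannot tell free RNA from doublets or from receptors that these cells express. Macrophage markers summed to 3787 CPM in the wild-type cluster, and to 1547 CPM and 883 CPM in the knockout ones. The count of 3′ ends does not say whether a remaining transcript encodes the receptor.

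The 50 knockout UMIs of Ccr2 came from 30 cells, of which 19 held exactly 1 and the richest held 6. None of these 30 cells carried a barcode shared with the wild type. Of the 51 cells in a knockout cluster led by Dcn and Col1a1, 10 held 22 of the UMIs (19.6% of its cells, 9.82 to 33.1). That cluster held fibroblast markers at 6116 CPM together with monocyte markers at 3413 CPM. The 10 cells had 0 UMIs of the 5 fibroblast markers and a median of 22.5 UMIs of the 8 monocyte markers (1 to 50). The other 41 cells had a median of 0 fibroblast-marker UMIs too, with up to 543 in a cell, and a median of 10 monocyte-marker UMIs (0 to 76). The cluster was grouped without any receptor gene, and this split of its cells was made after its values were seen.

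Cx3cr1, the fractalkine receptor and the usual surface mark of gut macrophages, stood at 621 CPM in wild type and 1025 CPM in the knockout (1002 to 1049). Lane 1 had 673 CPM (660 to 687) and lane 2 had 495 CPM (478 to 513). The knockout was 1.65-fold higher (1.61 to 1.70), a log2 difference of 0.72, beside a lane difference of -0.44. Both lanes lay under the knockout, but the gap between the lanes of the wild-type sample was not small beside the gap between the libraries. At 1000 UMIs per cell, 44.4% of the cells held a Cx3cr1 UMI in wild type (42.7 to 46.2), and 59.1% did in the knockout (57.1 to 61). Without thinning the order turned, with 87.0% in wild type and 80.6% in the knockout, where the median wild-type cell held more UMIs. The lymphoid-like share was 20% in wild type and 4.08% in the knockout.

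Ccr1, a receptor for inflammatory chemokines, was nearly level between the libraries. It had 467 CPM in wild type, 478 CPM on lane 1 and 442 CPM on lane 2, and 423 CPM in the knockout, 0.905-fold of wild type (0.869 to 0.942). The log2 difference of -0.14 was close to the lane difference of -0.11. Lane 2 lay between lane 1 and the knockout. At equal depth 38.4% of wild-type and 33.3% of knockout cells held a Ccr1 UMI, against lymphoid-like shares of 7.50% and 2.04%.

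Ccrl2, the chemerin-binding atypical receptor, and Cxcr4, the CXCL12 receptor, were higher in the knockout. Ccrl2 had 108 CPM in wild type, 107 CPM and 111 CPM on the lanes, and 237 CPM in the knockout, 2.20-fold higher (2.06 to 2.34). Cxcr4 had 52.8 CPM in wild type, 48.8 CPM on lane 1 and 62.2 CPM on lane 2, and 177 CPM in the knockout, 3.35-fold higher (3.09 to 3.64). Neither gene's lanes came near the knockout level. The share of cells with a UMI at equal depth went from 8.99% to 20.1% for Ccrl2 and from 5.41% to 16.3% for Cxcr4. In lymphoid-like cells those shares were 5% and 4.08% for Ccrl2, and 2.50% and 6.12% for Cxcr4.

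Of the 5 receptor genes that reached a mean of 10 CPM over the libraries, 1 was at least 2-fold lower in the knockout, where 3.12% of the 7401 genes tested were. That gene was Ccr2, the deleted gene, whose loss is set by the genotype, and no other of the 5 was. On the other side, 2 of 5 were at least 2-fold higher (Ccrl2 and Cxcr4), where 9.04% of all genes were. Ccr7 and Ccr9 did not reach the minimum. The median log2 difference was 0.72 over the 5 genes, Ccr2 included, and 0.18 over all genes. Scaling by median-of-ratios size factors moved the median of all genes to -0.004, 6.47% of genes were then 2-fold lower and 5.89% higher, and the differences became 0.53 for Cx3cr1, -0.33 for Ccr1, 0.94 for Ccrl2 and 1.54 for Cxcr4, which leaves Cxcr4 alone past 2-fold.

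**Figure D1:**
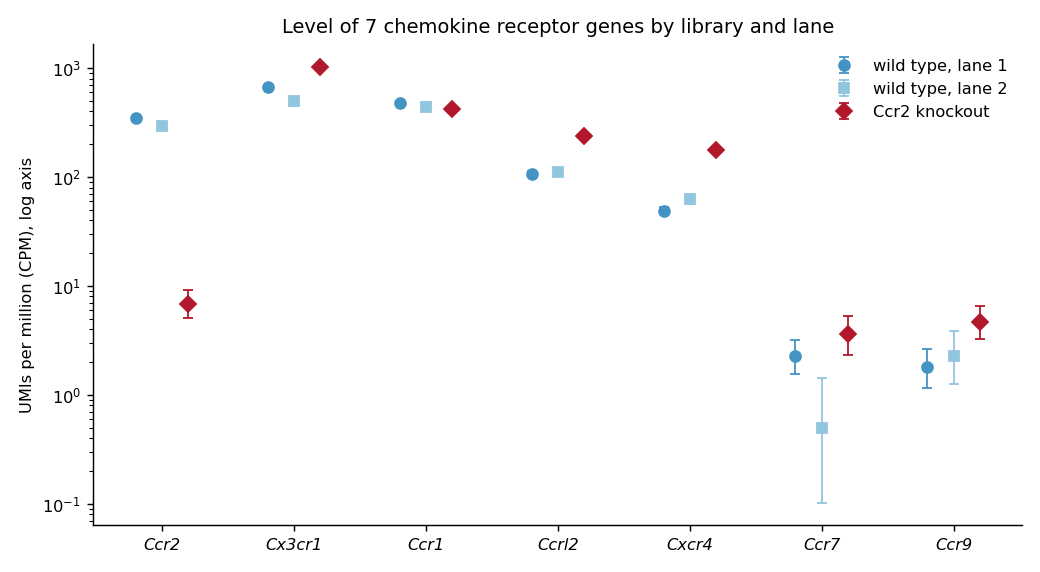
Level of each receptor gene in UMIs per 1000000 UMIs on a log axis, for wild-type lane 1 (circles), wild-type lane 2 (squares) and the Ccr2 knockout (diamonds), with 95% Poisson intervals. Ccr2 drops from 347 CPM and 293 CPM to 6.88 CPM, Cx3cr1, Ccrl2 and Cxcr4 lie above both lanes in the knockout, and Ccr7 and Ccr9 stay under 5 CPM in all.

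Ccr7 and Ccr9 were rare and lay mostly outside the macrophage-like clusters. Ccr7 had 36 UMIs in wild type (1.74 CPM, 2.26 CPM on lane 1 and 0.491 CPM on lane 2, where only 3 UMIs were found) and 26 UMIs in the knockout (3.58 CPM). Of the 36 wild-type UMIs, 30 (83.3%) came from 5 cells of 1 cluster, which held macrophage and monocyte markers, and 0 came from the 1711 cells of macrophage-like clusters. Those 5 cells held a median of 29 UMIs of the 6 mature dendritic cell markers (1 to 64), against a median of 1 (0 to 47) in the other 558 cells of the cluster. Their median macrophage-marker count was 20 UMIs, against 81, and their median Ccr2 count was 0 UMIs, against 6. In the knockout, 15 of 26 Ccr7 UMIs lay in 6 of 23 cells of a B and plasma cell-like cluster, and 8 lay in 5 of 2139 macrophage-like cells.

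Ccr9 had 40 UMIs in wild type (1.93 CPM, 1.78 CPM on lane 1 and 2.29 CPM on lane 2) and 34 UMIs in the knockout (4.68 CPM). In wild type, 25 UMIs (62.5%) lay in 12 of the 40 lymphoid-like cells and 10 in macrophage-like cells. In the knockout, 22 UMIs (64.7%) lay in 11 of 27 cells of a T cell or ILC-like cluster. The gate had removed CD3+ and B220+ cells, and the part that the number of remaining lymphoid cells has in the library levels of Ccr7 and Ccr9 was not tested.

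Among wild-type cells, the other receptors were followed over classes of Ccr2 UMIs. Each cell was thinned to 3000 UMIs, which 524 cells did not reach, and the remaining 2492 cells were classed by their own Ccr2 count: 1585 cells with 0, 334 with 1, 441 with 2 to 4 and 132 with 5 or more. Cx3cr1 was lower in each class than in the one before, with 694, 649, 546 and 434 CPM. The same order was seen on lane 1 (753, 728, 588 and 469 CPM) and on lane 2 (560, 433, 428 and 310 CPM). The end classes differed by 0.626-fold (0.534 to 0.730), while a second random thinning, with 140 cells in the top class, gave a log2 difference of -0.40 in place of -0.67. Ccr1 had the same order, with 524, 467, 421 and 343 CPM, with 545, 481, 431 and 353 CPM on lane 1 and 475, 430, 394 and 310 CPM on lane 2. Its end classes differed by 0.656-fold (0.548 to 0.780).

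Ccrl2 and Cxcr4 showed no steady course. Ccrl2 had 91.3 CPM in cells without Ccr2, 153 CPM at 1 UMI, and 113 CPM and 106 CPM above that, an end-to-end ratio of 1.16 (0.826 to 1.60). Cxcr4 had 50.7, 60.9, 66.5 and 45.5 CPM, a ratio of 0.897 (0.523 to 1.45). The intervals of both ratios include 1. Ccr7 had 11, 0, 1 and 0 UMIs over the classes and Ccr9 had 8, 1, 2 and 0.

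None of the 4 receptors of at least 10 CPM passed 2-fold between the end classes, up or down, where 1.80% of 7093 genes were 2-fold higher and 10.8% were 2-fold lower in cells with 5 or more Ccr2 UMIs. Levels that stepped down over all classes were seen for 11.8% of all genes and levels that stepped up for 6.51%, and the median end-to-end log2 difference of all genes was -0.12. The genes with the highest ratios between the end classes were Clec12a, from 13.2 to 162 CPM, Lsp1, S100a6, Plac8, from 91.3 to 601 CPM, and Mmp12. Plac8, S100a6 and Lsp1 are on the monocyte list. Those with the lowest were the globin genes Hba-a1 (at least 20.4-fold lower), Hba-a2 (at least 18.8-fold) and Hbb-bt (at least 9.72-fold), 2900026A02Rik (at least 3.97-fold), and Jchain, from 2080 to 85.9 CPM, which plasma cells express. For the 3 globin genes this came mostly from lane 1: on log2(CPM + 1) the differences were -7.80, -7.68 and -6.74 there and -1.25, -1.25 and -0.75 on lane 2. The bounds use a floor of 3 counts in the top class, where these genes had 0.

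Marker lists moved over the same classes. The 8 monocyte markers summed to 137, 388, 698 and 947 CPM, the 8 macrophage markers to 15978, 11760, 10918 and 10944 CPM, and the 12 immediate-early genes to 6432, 7225, 7346 and 8283 CPM. Plasma cell markers went from 2157 to 93.4 CPM and red cell markers from 616 to 12.6 CPM over the end classes. In sum, cells with Ccr2 UMIs thus carried more monocyte-marker transcripts and fewer macrophage-marker ones than cells without. In the top class, 6 of 8 monocyte markers and 1 of 8 macrophage markers were above the class without Ccr2. Plac8 alone made up 601 CPM of the monocyte sum there, and Chil3 and Vcan were at 0. The share of cells in the cluster with monocyte markers grew, from 6.50% of the cells without Ccr2 to 32.6%, 52.2% and 60.6%.

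Inside and outside that cluster the courses differed from the pooled one. Inside it (103, 109, 230 and 80 cells), Cx3cr1 had 340, 336, 378 and 296 CPM and Ccr1 had 317, 336, 384 and 313 CPM. Outside it (1482, 225, 211 and 52 cells), Cx3cr1 had 719, 800, 728 and 647 CPM, and Ccr1 had 538, 530, 461 and 391 CPM. Cx3cr1 was therefore lower inside the cluster than outside in every Ccr2 class and had no steady course on either side, while Ccr1 stepped down outside it and not inside it, a difference that was not tested. Ccrl2 stepped down inside the cluster, with 304, 287, 143 and 117 CPM, and stayed between 76.5 CPM and 89.7 CPM outside. Cxcr4 had 107, 116, 78.3 and 62.5 CPM inside and 46.8, 34.1, 53.7 and 19.2 CPM outside.

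**Figure D2:**
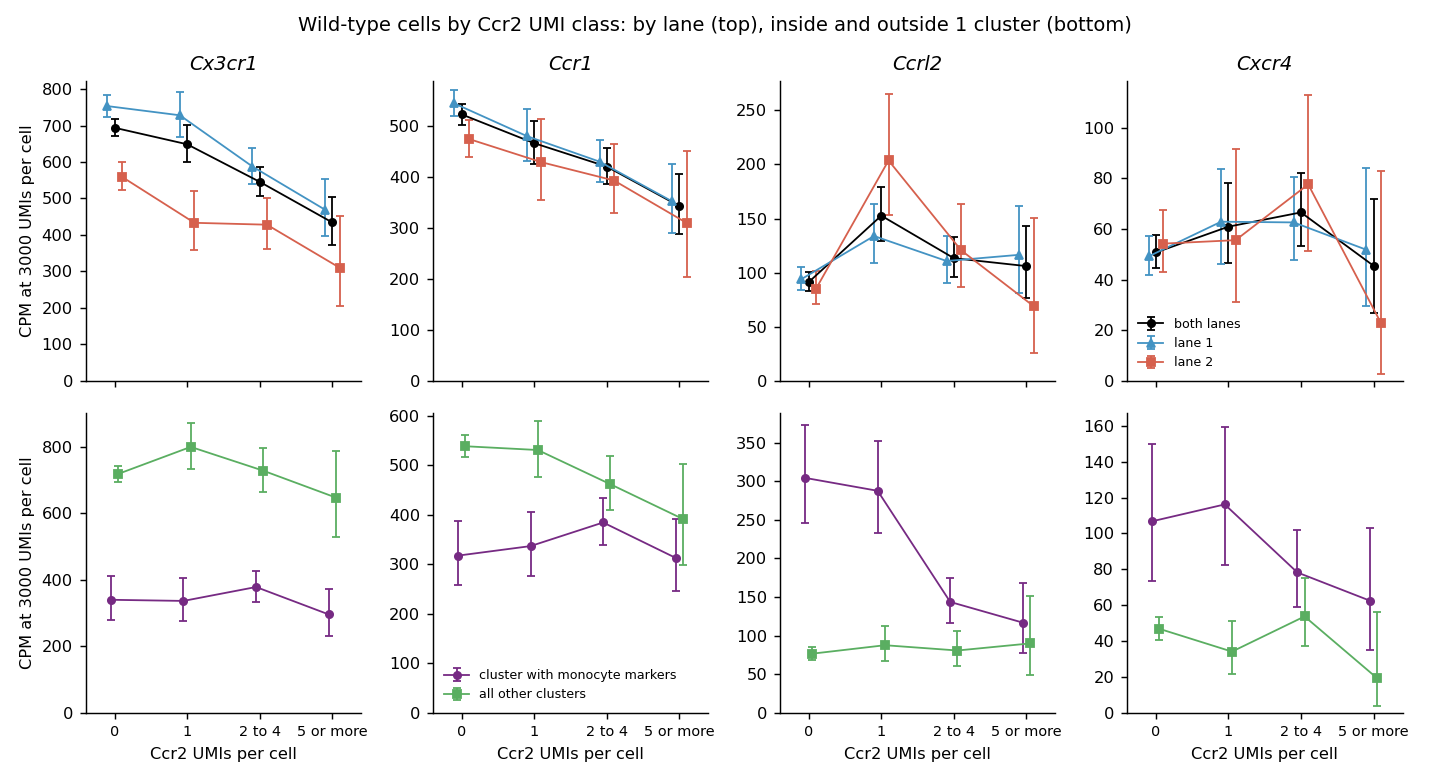
Levels of 4 receptor genes in wild-type cells against their Ccr2 UMI class, in CPM at 3000 UMIs per cell with 95% Poisson intervals, for both lanes together and each lane (top) and for cells inside and outside the cluster with monocyte markers (bottom). In the top row Cx3cr1 drops from 694 to 434 CPM and Ccr1 from 524 to 343 CPM; in the bottom row Cx3cr1 forms an upper and a lower line with little slope.

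The C1q genes gave a second axis of macrophage maturation that the choice of genes did not use. Cells were thinned to 1000 UMIs and classed by the summed UMIs of C1qa, C1qb and C1qc. Ccr2 stepped down over the classes 0 to 4, 5 to 9, 10 to 19 and 20 or more in wild type, with 484, 400, 251 and 139 CPM in 417, 955, 1241 and 402 cells. It did so on lane 1 (500, 424, 273 and 170 CPM) and on lane 2 (438, 316, 202 and 105 CPM). Cx3cr1 did not mirror it: wild-type cells had 566, 673, 701 and 592 CPM, and knockout cells 769, 1140, 1102 and 846 CPM, highest in the middle classes of both libraries. Ccr1 had 388, 530, 521 and 517 CPM in wild type and 322, 435, 493 and 692 CPM in the knockout, whose top class held only 26 cells.

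Cxcr4 was higher in the knockout in each C1q class, with 76.7, 88.0, 44.3 and 32.3 CPM in wild type and 164, 224, 199 and 192 CPM in the knockout. The ratio was 2.13, 2.55, 4.49 and 5.95 from the lowest class to the highest, where the knockout had 5 UMIs. Ccrl2 had 141, 107, 106 and 64.7 CPM in wild type and 187, 255 and 276 CPM in the first 3 knockout classes. Its ratio there was 1.32, 2.39 and 2.62, and the top knockout class held only 2 UMIs.

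Knockout cells were also set beside the wild-type cells in which no Ccr2 UMI was detected, called cells without Ccr2 here. Wild-type cells were split by their Ccr2 count before thinning, and 618 of the 1323 with a Ccr2 UMI still held one at 1000 UMIs. Cells without Ccr2 may still express it below detection. All knockout cells were taken, and 15 of them held a Ccr2 UMI at 1000 UMIs, so the groups are not matched for lack of the transcript. At 1000 UMIs per cell, Cx3cr1 had 568 CPM in 1323 wild-type cells with a Ccr2 UMI, 730 CPM in 1692 wild-type cells without, and 1058 CPM in 2416 knockout cells. The knockout was 1.45-fold above the wild-type cells without Ccr2 (1.35 to 1.55). Ccrl2 had 129, 86.9 and 248 CPM in the same order, 2.86-fold above (2.38 to 3.45). Cxcr4 had 62.0, 60.3 and 204 CPM, 3.39-fold above (2.74 to 4.24). Ccr1 had 436, 558 and 438 CPM, a log2 difference of -0.35. Leaving out the wild-type cells with a detected Ccr2 UMI thus brought Cx3cr1 nearer to the knockout level and left the Cxcr4 ratio near that of the whole libraries. It widened the gap of Ccrl2 and of Ccr1. The receptor gene Cmklr1, whose product signals for chemerin, had 89.8 CPM in wild-type cells without Ccr2 and 117 CPM in the knockout.

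**Figure D3:**
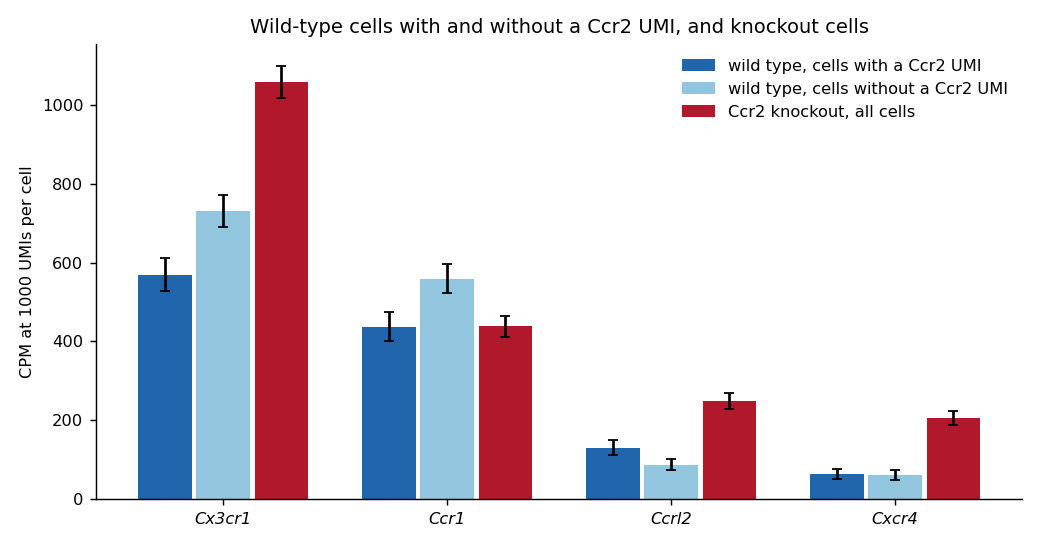
Bars give CPM at 1000 UMIs per cell, with 95% Poisson intervals. They stand for wild-type cells with a Ccr2 UMI before thinning, wild-type cells without one, and all knockout cells. For Cx3cr1 the bars climb from 568 to 730 to 1058 CPM, for Cxcr4 the wild-type bars are level at 62.0 and 60.3 CPM under 204 CPM, and for Ccr1 the wild-type cells without Ccr2 are highest at 558 CPM.

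Since all 12 immediate-early genes were higher in the knockout library, members were compared between cells with equal immediate-early UMIs, at 1000 UMIs per cell. Wild-type cells numbered 1180, 1100, 611, 98 and 26 in the classes 0 to 4, 5 to 9, 10 to 19, 20 to 29 and 30 or more, and knockout cells 71, 122, 567, 725 and 931. Ccrl2 climbed with the immediate-early count in wild type, with 40.7, 105, 201, 204 and 462 CPM, and in the knockout it had 42.3, 131, 273, 283 and 237 CPM. Its intervals overlapped between the libraries in every class, and in the class of 10 to 19 the ratio was 1.36 (1.06 to 1.73). Cxcr4 had 38.1, 61.8, 72.0, 204 and 269 CPM in wild type and 14.1, 164, 196, 189 and 242 CPM in the knockout. Its ratio in the class of 10 to 19 was 2.72 (1.90 to 3.95), while the intervals overlapped at 0 to 4 and from 20 upward.

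Cx3cr1 stayed between 621 and 808 CPM over the wild-type classes and ran from 521 to 1171 CPM over the knockout ones. The libraries overlapped below 10 immediate-early UMIs, and at 10 to 19 the ratio was 1.55 (1.36 to 1.77). Ccr1 was lower in the knockout in each class, 0.860-fold at 10 to 19 (0.731 to 1.01). Without thinning, the log2 differences in the class of 10 to 19 were 0.72 for Cx3cr1, -0.22 for Ccr1, 0.22 for Ccrl2 and 0.79 for Cxcr4, so that none of these was past 2-fold. These classes were chosen after the library levels had been seen.

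**Figure D4:**
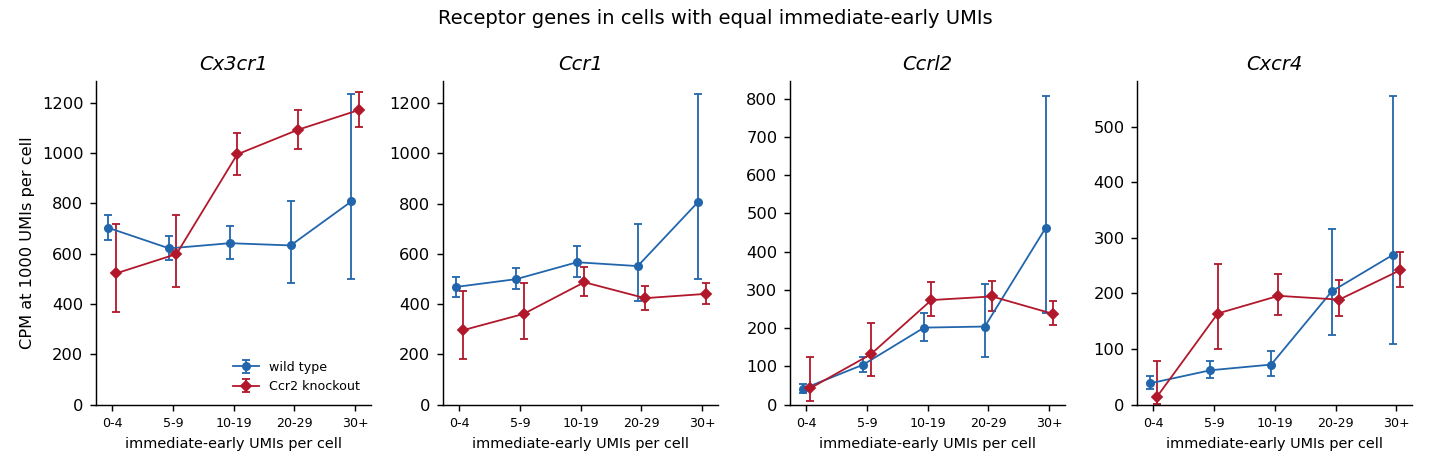
CPM at 1000 UMIs per cell against the summed UMIs of 12 immediate-early genes in the cell, for wild type (circles) and the Ccr2 knockout (diamonds), with 95% Poisson intervals. Ccrl2 climbs from 40.7 CPM at the left in wild type with the knockout close by, Cxcr4 is apart at 5 to 19 UMIs, and Cx3cr1 is apart at 10 to 29 UMIs, with 642 CPM against 995 CPM at 10 to 19.

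Each library was clustered on its own with all receptor genes left out of the genes that shape the clusters, and 11 wild-type clusters held at least 30 cells. Ccr2 varied most. It was highest in the cluster with monocyte markers, led by Ccl22 and Ccl17, at 764 CPM in 563 cells, which held 56.1% of all wild-type Ccr2 UMIs and had monocyte markers at 1004 CPM. That cluster was mixed: macrophage markers summed to 10562 CPM there, and 4 of the 8 monocyte markers met the rule for its name. Its leader Ccl22 is on the mature dendritic cell list, whose 6 genes summed to 142 CPM. Ccr2 was lowest in the macrophage-like cluster led by Gpnmb and H2-M2, at 15.1 CPM in 548 cells, and next in the one led by Pgf and Thbs1, at 37.8 CPM in 189 cells. Cycling macrophage-like cells, led by 2810417H13Rik and Nusap1, had 368 CPM, and cells led by the interferon-response genes Cmpk2 and Ifit1 had 283 CPM. Over the 6 macrophage-like clusters, Ccr2 ranged 24.3-fold. In order of level, 6 of 10 neighbouring clusters had overlapping intervals.

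Cx3cr1 and Ccr1 ranged less, 1.86-fold and 1.63-fold over the same 6 clusters. Cx3cr1 was highest in the cluster led by BC005537 and the heat-shock gene Hspa1b, at 876 CPM, and in the one led by Cbr2 and Sparc, at 856 CPM, and low at 350 CPM in the cluster with monocyte markers. The Cbr2 cluster held fibroblast markers beside macrophage ones, and it also had the genes Folr2, Lyve1 and Cd163 of tissue-resident macrophages among its leaders. Ccr1 was highest in the Pgf cluster, at 650 CPM, and the Gpnmb cluster, at 604 CPM, and had 337 CPM in the cluster with monocyte markers. The Gpnmb cluster, with the least Ccr2, thus had 736 CPM of Cx3cr1.

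Ccrl2 and Cxcr4 were highest together in the Pgf cluster, at 254 CPM and 128 CPM, followed by the cluster with monocyte markers, at 196 CPM for Ccrl2. Both were lowest among clusters of at least 30 cells in the Cbr2 cluster, at 27.4 CPM and 17.6 CPM. They ranged 4.98-fold and 3.97-fold over the macrophage-like clusters. Overlapping neighbours numbered 7 of 10 for Cx3cr1, 8 for Ccr1, 7 for Ccrl2 and 8 for Cxcr4.

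In the knockout, 8 clusters were macrophage-like. Cx3cr1 was highest at 1353 CPM in the cluster of 624 cells led by Cd209f and Fcna and ranged 2.07-fold. Ccr1 ranged 2.49-fold and had its lowest macrophage-like level, 228 CPM, in the cluster of 266 cells led by Ccl21a and Mmrn1, where Cxcr4 was lowest too, at 71.8 CPM. Ccrl2 was highest in cycling cells, at 369 CPM in 41 cells, and in interferon-response cells, at 359 CPM in 56 cells. It ranged 3.30-fold and Cxcr4 3.55-fold. The knockout had 12 clusters of at least 30 cells. Overlapping neighbours numbered 11 of 11 for Ccr1, Ccrl2 and Cxcr4, 10 for Ccr2 and 9 for Cx3cr1. A cluster of 259 cells led by defensin genes of Paneth cells was left unnamed, with Ccr2 at 19.4 CPM. Its macrophage markers summed to 11202.5 CPM, but it was not counted as macrophage-like. In wild type, a defensin-led cluster of 22 cells was left out in the same way. Since the clusters of each library were found separately, they were not matched between libraries. The macrophage-like sets were unlike in makeup. In wild type the set left out 2 mixed clusters, the Cbr2 cluster of 395 cells and the one with monocyte markers, of 563 cells. The knockout set kept the Ccl21a cluster of 266 cells, which had Cbr2 and F13a1 among its leaders. Over macrophage-like cells alone, 1711 in wild type and 2139 in the knockout, the log2 differences were -5.65 for Ccr2, 0.62 for Cx3cr1, -0.27 for Ccr1, 1.38 for Ccrl2 and 1.78 for Cxcr4.

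**Figure D5:**
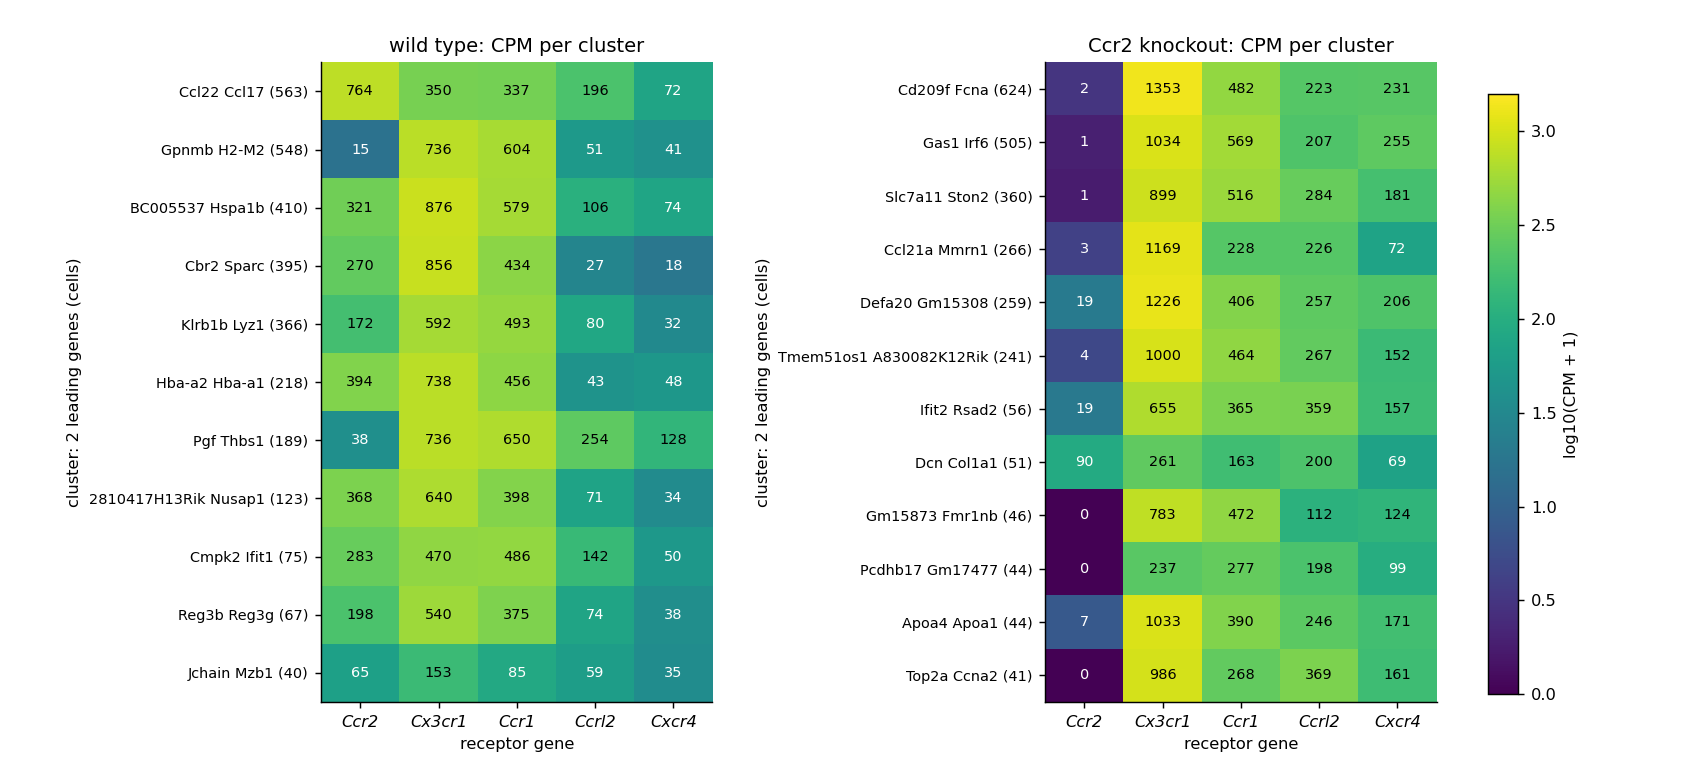
Each cell of the grid prints a receptor gene's level in UMIs per 1000000 UMIs in a cluster of at least 30 cells, coloured by log10(CPM + 1), for wild type (left) and the Ccr2 knockout (right), with clusters named by their leading pair of genes and their number of cells. The Ccr2 column runs from 764 to 15.1 CPM in wild type and reaches at most 89.7 CPM in the knockout, and Ccrl2 and Cxcr4 peak together in the wild-type Pgf cluster.

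The genes most like each receptor over the 11 wild-type clusters were found by the Pearson correlation of log2(CPM + 1), a description over clusters of 1 library that share depth and cell makeup. For Ccr2 they were Nsa2 (0.93), Rpl35a (0.91), Flna (0.90), Adgre5 (0.90) and Tagln2 (0.90). Cx3cr1 was most like Gnpda1 (0.97), Dusp6 (0.97) and Wdfy3 (0.96), and Ccr1 most like Itgb5, Runx1 and Wdr41 (0.98 each). Ccrl2 was most like Fos (0.93), Junb (0.90) and Pim3 (0.89), and Cxcr4 most like Gpr132 (0.92), Junb (0.91) and Ptp4a1 (0.91). Among the receptors themselves, Cx3cr1 and Ccr1 correlated at 0.91 and Ccrl2 and Cxcr4 at 0.85, while Ccr2 had correlations between -0.10 and 0.04 with the others. The values for Ccr2 depended on how finely the clusters were cut: with 6 coarser clusters they were -0.50 with Cx3cr1, -0.68 with Ccr1, 0.49 with Ccrl2 and 0.30 with Cxcr4, and with 18 finer ones -0.21, -0.16, 0.29 and 0.02. With the coarser and the finer clusters, Cx3cr1 and Ccr1 correlated at 0.76 and 0.77, and Ccrl2 and Cxcr4 at 0.90 and 0.80. The lymphoid-like cluster was the lowest of the 11 for Cx3cr1 (153 CPM) and Ccr1 (85.1 CPM). Its part in their correlation was not tested. The lists of most similar genes changed as well with the coarser clusters, with 0 of the same genes for each of the 5 receptors.

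Among the family genes that are not members, Cmklr1 passed the minimum of 10 CPM, with 69.0 CPM in wild type and 109 CPM in the knockout. Its log2 difference of 0.65 did not pass 2-fold. Ccr1l1, Ccr8, Cxcr1, Ackr1 and Ackr2 had no UMI in either library.

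Ligands of the 7 receptors were a second list. Of 15 genes, 11 reached the minimum, 6 were at least 2-fold higher in the knockout and 0 were at least 2-fold lower, where 9.04% and 3.12% of all genes were. The median log2 difference was 1.07, beside 0.18 for all genes. Among the CCR2 ligands, Ccl2 went from 157 to 696 CPM (4.42-fold) and Ccl7 from 187 to 1201 CPM (6.43-fold). Among the CCR1 list, Ccl3 went from 567 to 1193 CPM (2.10-fold) and Ccl4 from 770 to 4678 CPM (6.08-fold). The other tested ligands of these receptors stayed within 2-fold and did not all rise. For CCR2, Ccl12 was 1.82-fold and Ccl8 0.866-fold of wild type. For CCR1, Ccl5 was 0.868-fold, Ccl6 0.633-fold and Ccl9 0.576-fold. In macrophage-like cells alone, Ccl2 had 132 and 731 CPM, Ccl7 172 and 1225 CPM, Ccl3 631 and 1230 CPM, and Ccl4 887 and 4888 CPM. These 4 inflammatory chemokine genes thus differed between the macrophage-like sets too, which were named separately in each library and are unlike in makeup. The immediate-early genes of the libraries differed in the same direction, and their part was not tested.

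Of the other 2 ligands, Rarres2, which encodes chemerin, the ligand of CCRL2, had 4.84 and 21.2 CPM (4.38-fold), and 86.4% of its 154 knockout UMIs lay in the 51 cells of the Dcn and Col1a1 cluster. In macrophage-like cells it had 2.17 and 3.05 CPM. Cxcl12, the ligand of CXCR4, had 4.74 and 43.1 CPM (9.09-fold), with 57 of 313 knockout UMIs (18.2%) in that cluster. Macrophage-like clusters held 38 of them (12.1%), so most lay in the remaining knockout clusters. In macrophage-like cells Cxcl12 had 2.17 CPM in wild type (1.41 to 3.21) and 6.45 CPM in the knockout (4.56 to 8.85), so its intervals were apart there too. The third list held 24 genes of receptor coupling and shut-off, such as G protein subunits, arrestins and regulators of G protein signalling. Of these, 23 were tested, with a median log2 difference of 0.30 beside 0.18 for all genes, and 1 was lower and 1 higher by 2-fold, where 3.12% and 9.04% of all genes were. Coro1a, an actin-binding coronin, was lower (611 to 282 CPM, 0.462-fold), and Rgs1, which shuts off G protein signalling downstream of chemokine receptors, was higher (1356 to 2736 CPM, 2.02-fold). The other 21 stayed within 2-fold.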

How the data were processed

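The authors deposited UMI counts per gene and cell for 1 wild-type and 1 knockout library, made with Cell Ranger 3.0.1 on mm10 per the submitters' processing notes. Counts were read as deposited. Cells needed 200 genes and no more than 10% mitochondrial UMIs. Doublets were kept. In an alternative, the 43 wild-type and 55 knockout cells with the highest doublet scores were removed, numbers set by an assumed rate of 0.8% per 1000 cells. The automatic score threshold called 6 cells in each library. Levels are UMIs summed over cells per 1000000 UMIs (CPM), with exact Poisson intervals. Depth was equalised by drawing 1000 UMIs per cell between libraries and 3000 within wild type. With 1 library per genotype, no test was run. A gene was called past a fold of 2 on log2(CPM + 1) where its mean was at least 10 CPM.

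Each library was clustered with scanpy 1.11.5 (2000 variable genes without receptor genes, 30 components, 15 neighbours, Leiden resolution 0.8). A cluster was called by a cell type from at least 3 of its markers, and macrophage-like from at least 6 of 8. The thresholds were set after the data were seen, and clusters with markers of another type, or led by defensin genes, kept no such name.

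Named genes were all members, list genes past 2-fold and receptor genes of at least 10 CPM, the 3 genes (5 for Ccr2) of at least 20 CPM most like a member that itself had at least 100 wild-type UMIs, and the 5 highest and lowest between the end Ccr2 classes. The members and lists were chosen with earlier results of these data known. Thinning and class ratios were tested on simulated data. Alternatives covered scaling, pseudocount, filters, depth, lanes, doublets and clusters. Of the wider family list, 1 result is not reported here.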

Additional observations from a re-analysis of the deposited data

How the results depend on the processing

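Ccr2, the deleted gene, was the single member at least 2-fold lower in the knockout under all 11 alternatives, with log2 differences from -5.65 to -4.34. The count at least 2-fold higher, 2 as reported, was 1 with size factors (Cxcr4), 1 in cells of 2000 to 4000 UMIs (Ccrl2, with Cxcr4 at 0.995) and 0 in cells with 10 to 19 immediate-early UMIs, an alternative added after seeing the data, and on lane 2 alone it was 3, with Cx3cr1. Cx3cr1 ranged from 0.52 to 1.05, Ccr1 from -0.33 to -0.06, Ccrl2 from 0.22 to 1.57 and Cxcr4 from 0.79 to 1.93, so no member changed direction. The Cx3cr1 share of cells, knockout minus wild type, turned from 14.6 to -6.38 percentage points without thinning, where depth differs. Between the end Ccr2 classes the count higher was 1 at 2000 UMIs per cell (Ccrl2, 56 cells in the top class). The count lower was 1 on lane 2 (Cxcr4), 2 with no minimum level (Ccr7 and Ccr9, at 0 in the top class), 1 inside the cluster with monocyte markers (Ccrl2, -1.38) and 1 outside it (Cxcr4, -1.24), the last 2 added after seeing the data. The end-class difference ran from -0.85 to -0.11 for Cx3cr1 and from -0.72 to -0.02 for Ccr1. The causes of these shifts were not tested. No paired analysis was possible because each genotype had 1 library.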

Other observations

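Several receptor genes of the family fell under the minimum level and were found in few cells. Ccr10, a receptor of plasma cells and skin-homing T cells, had 122 UMIs in 31 wild-type cells, up to 16 in a cell, and 112 of them lay in the 40 lymphoid-like cells. In the knockout it had 20 UMIs in 15 cells, 16 of them in lymphoid-like cells. Cxcr6 had 31 wild-type UMIs, 26 of them in lymphoid-like cells. Cxcr3 differed from these: its 104 wild-type UMIs (5.03 CPM) were spread over 97 cells, with 6 in lymphoid-like cells, against 19 UMIs in the knockout (2.62 CPM). Xcr1, a receptor of conventional dendritic cells, had 69 UMIs in 56 wild-type cells and 17 UMIs in the knockout. Cxcr2, the neutrophil receptor, had 18 UMIs in wild type and 27 UMIs in 26 knockout cells.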
